A study of Homo sapiens with 4 samples.

Results

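Cytosolic ribosomal protein genes encode the proteins that, with ribosomal RNA, build the ribosomes of the cytosol. They were picked by symbol: RPL or RPS followed by a number and, in some, an A or X, the stalk genes RPLP0, RPLP1 and RPLP2, and RPSA. Of 77 symbols, 76 were measured, out of 17217 named genes in the whole series, and RPSA was not matched. The members were 46 genes of the large subunit and 30 of the small subunit, read by 270 probes of 90 targets, a target being a RefSeq transcript with its set of 3 probes. All samples were untreated HEK293 cells, an epithelial-like line derived from human embryonic kidney and transformed with adenovirus DNA, grown in DMEM with serum and antibiotics. The 4 biological replicates form 1 group, so no conditions were compared. Total RNA was copied from an oligo(dT) primer, labelled with Cy3 and hybridised in 1 colour to NimbleGen arrays. The original purpose was a survey of G protein-coupled receptors, for which the line is a common host. The label was checked with fixed markers: 5 of 7 genes known in the line lay above the detection baseline (VIM, KRT8, KRT18, NEFM and NEFL, but not PAX2 and LHX1), and 4 of them passed limma's test. The exception was NEFM, whose levels were 13.57, 8.32, 13.09 and 8.08 on replicates 1 to 4, so that it exceeded the baseline on replicates 1 and 3 alone (adjusted p = 0.064 by limma). Of 7 markers of other cell types GFAP exceeded it, at 0.16 ± 0.78 log2 units (SD, n = 4), and limma did not call it (adjusted p = 0.644).

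Each cytosolic ribosome joins a small subunit, which reads the messenger RNA, to a large subunit, which forms the peptide bond, and both need their proteins in matched amounts. Growing cells spend much of their transcription on these genes. Their messenger RNAs are known for a run of pyrimidines at the very 5′ end, the TOP motif, through which translation of the whole group is coupled to mTOR signalling.

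The start of the transcript is the sequence that the members share and that the choice by symbol did not use. A tract was counted where the base at a start annotated by RefSeq (assembly GRCh38.p14) was C and at least 4 further pyrimidines (C or T) followed without a break, read on the transcript's strand only. A start was listed for 61 of the 76 members, and 45 of them (73.8%) held such a tract. Over all measured genes with a start, the tract was found in 907 of 13807 (6.57%), and over the whole table of starts it stood at 1429 of 35116 starts (4.07%). In members the tract ran from 5 to 19 bases with a median of 8. Below are the starts of the members with some of the highest array values (RPS16, RPL7A and RPL18), of RPL39, which has the longest tract, of RPL24, whose level varied little between arrays, of the stalk gene RPLP0, of RPS6 (the substrate of S6 kinase), and of members that come up again for low values. Each runs 5′ to 3′ over 10 bases before the start and 20 from it, with the tract in capitals.
RPS16, chr19:39435930-39435959, minus strand: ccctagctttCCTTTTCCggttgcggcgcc
RPL7A, chr9:133348208-133348237, plus strand: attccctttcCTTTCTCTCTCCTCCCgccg
RPL18, chr19:48619159-48619188, minus strand: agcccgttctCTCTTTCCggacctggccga
RPL39, chrX:119791611-119791640, minus strand: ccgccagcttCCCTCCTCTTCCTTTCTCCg
RPL24, chr3:101686699-101686728, minus strand: atgattctctCTTTCTTTTCgccatctttt
RPLP0, chr12:120201092-120201121, minus strand: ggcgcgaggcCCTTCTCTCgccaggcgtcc
RPS6, chr9:19380217-19380246, minus strand: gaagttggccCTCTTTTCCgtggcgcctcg
RPL34, chr4:108620566-108620595, plus strand: cttttttcttCCTCTTCCggggacgttgtc
RPS26, chr12:56041908-56041937, plus strand, no tract at this start: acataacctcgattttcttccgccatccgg
RPL32, chr3:12841546-12841575, minus strand, no tract at this start: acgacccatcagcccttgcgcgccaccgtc
Tracts were as short as in RPL41, at the lower end of the range, and longest in RPL39. RPL34 holds a tract and lay below the detection baseline, while RPL32 and RPS26, also near or below it, hold none at any listed start. A further 14 members with a start had no tract there: RPL3, RPL4, RPL6, RPL9, RPL10A, RPL15, RPL17, RPL19, RPL27, RPS4X, RPS7, RPS15, RPS28 and RPS29. The rule counts only from the annotated base, so a pyrimidine run offset from it is missed. In RPL19 and RPS7, for example, a listed start lies inside such a run. A missing tract here therefore does not show that the transcript lacks the TOP motif. Among other genes of translation, the tract stood in 4 of 5 genes of elongation and related factors with a start. That list includes TPT1 and PABPC1 besides the elongation factors, and TPT1 is among the genes with the tract. The tract stood in 4 of 8 for eIF3, in 3 of 22 for ribosome biogenesis (13.6%) and in 6 of 69 for mitochondrial ribosomal proteins (8.70%). EEF2, the factor that moves the ribosome along the message, has it as well.
EEF2, chr19:3985444-3985473, minus strand: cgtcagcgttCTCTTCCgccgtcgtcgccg
These are matches of letters in a reference sequence and were not measured on the arrays.

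Of the 76 members, 74 were detected in HEK293 cells (97.4%), at levels mostly close to the top of the scale. The level is the log2 intensity of a gene, and its distance is that level minus the baseline of the same array. The baseline is the mean plus 2 SD of 10 control genes, which the study listed as seminal proteins with little likelihood of expression. A gene counted as detected where its mean distance over 4 arrays was above 0, which held for 52.7% of all 17217 genes. On every array, 73 members exceeded the baseline, against 45.0% of all genes. By limma's one-sided moderated test with Benjamini-Hochberg adjustment over all genes, 73 members passed 0.05, against 45.9% of all genes. The baseline was 10.10 ± 0.52 log2 units (SD, n = 4). Among the 10 controls, SPATA5 and SPATA13 had mean levels of 9.97 and 9.72, while the median of the 10 was 7.05. Without SPATA5 and SPATA13 the baseline was 7.78, and 76 members and 12747 of all 17217 genes were detected. The calls of the lowest members therefore depend on these controls.

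The members' distances had a median of 5.05 log2 units, with quartiles of 4.36 and 5.40, while the median over all genes was 0.26. In levels the medians were 15.15 for the members and 10.37 for all genes. On replicates 1 to 4 the members' median level was 15.24, 15.29, 14.90 and 15.09, and that of all genes was 10.46, 10.38, 10.45 and 10.34. The members' median lay above that of all genes on each array, by 4.72 ± 0.20 log2 units on average (SD, n = 4). In an exact two-sided sign-flip permutation test the difference was as extreme as 4 arrays allow, at 2 of 16 sign patterns, a share that cannot reach 0.05. Of the 100 genes with the largest distances 23 were members, and of the 1000 largest 64 were. Each probe has its own affinity, so these distances do not rank transcripts by abundance.

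Among the highest members was RPS16, a small subunit protein with a counterpart in bacteria. Its levels were 15.94, 15.93, 15.89 and 15.66 on replicates 1 to 4, a distance of 5.75 ± 0.59 (SD, n = 4). RPL7A, a large subunit protein, had levels of 15.91, 15.89, 15.82 and 15.60, a distance of 5.70 ± 0.61. RPL18 had a distance of 5.63 ± 0.60. Much of the SD of these distances came from the baseline, which all genes on an array share and which cancels between them. The SDs of their levels were smaller, at 0.13 for RPS16, 0.14 for RPL7A and 0.10 for RPL18. RPS16 read higher than RPL7A and RPL18 on each array, by small margins, and the order of these genes was not tested.

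**Figure D1:**
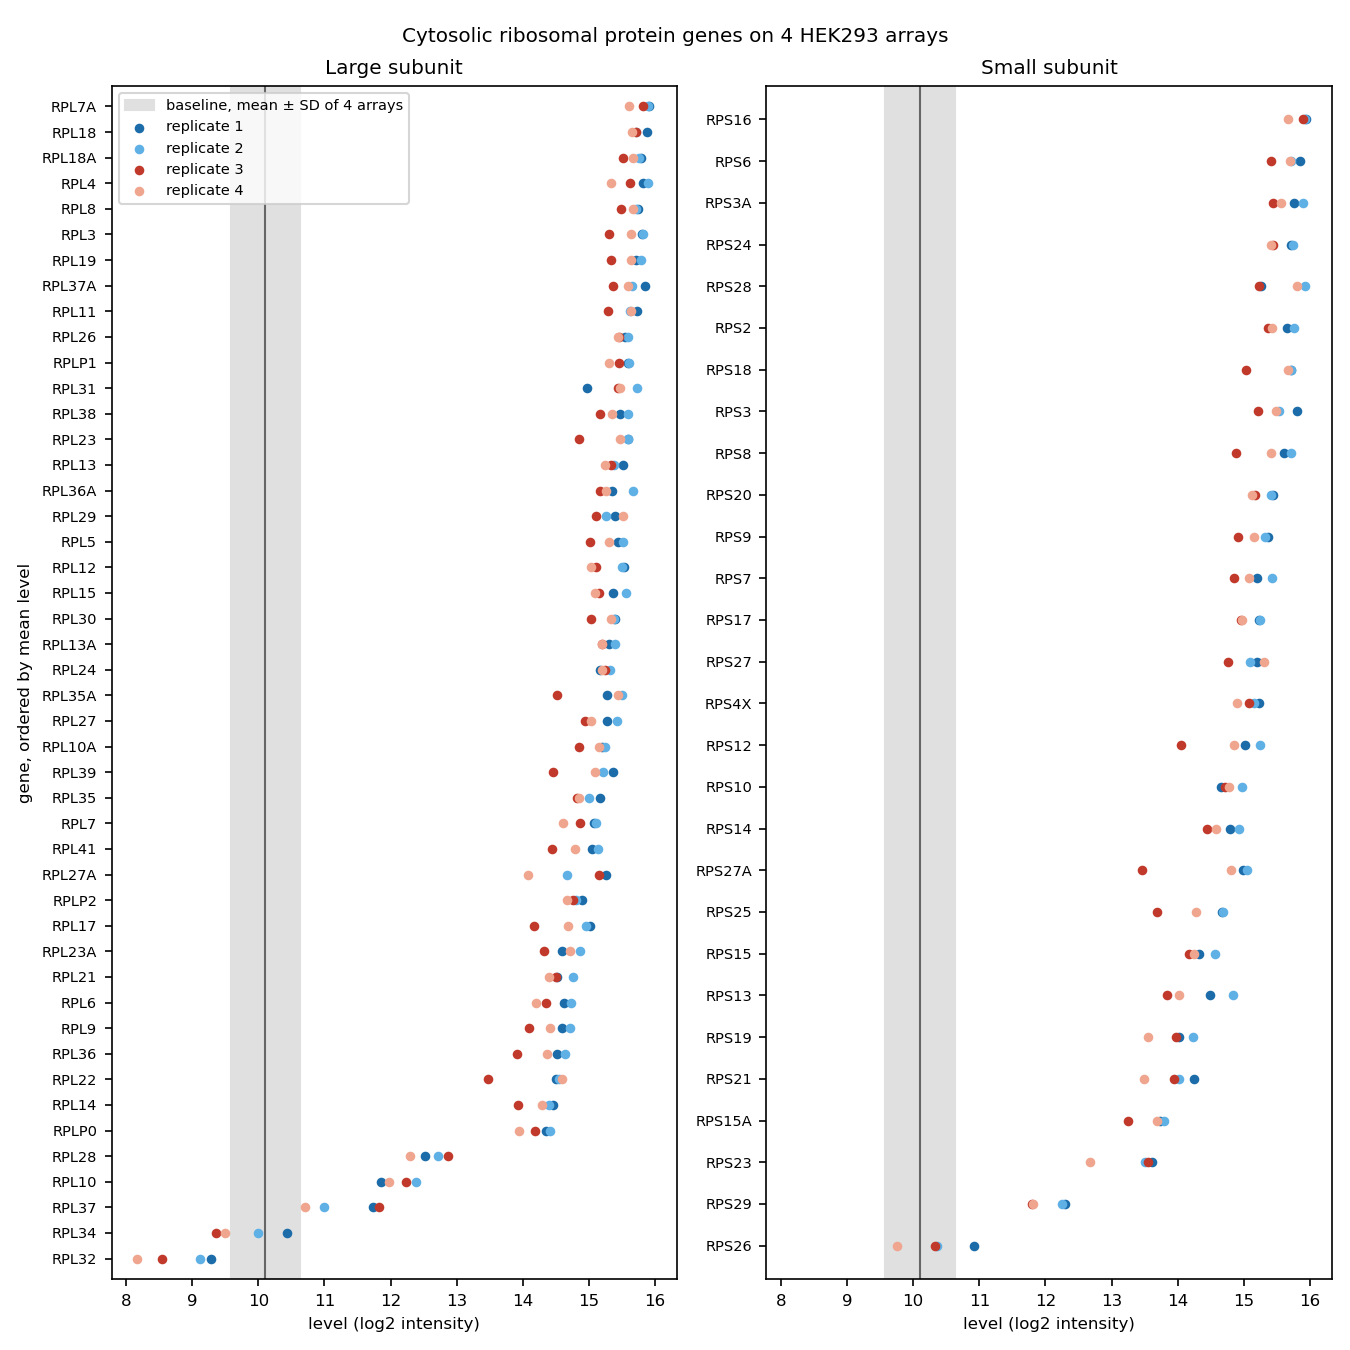
Level (log2 intensity) of the members, by subunit and ordered by mean level, with 1 coloured point per array; the grey line and band are the mean ± SD of the baseline over the 4 arrays (10.10 ± 0.52). Most members sit between 14 and 16 on every array, and RPL32, RPL34 and RPS26 reach the band or lie below it.

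By subunit, 44 of 46 large subunit genes and 30 of 30 small subunit genes were detected, with median distances of 5.10 and 4.99. The large subunit's median exceeded that of the small subunit on each array, by 0.09 ± 0.02 log2 units (SD, n = 4). This too was the extreme of the exact sign-flip test, which cannot reach 0.05 in this design. The same probes are read on every array, so an offset from probe affinity would repeat its sign on all 4. The test cannot separate such an offset from a difference in transcript amounts, so no conclusion about amounts is drawn from it. Of the small subunit genes, 29 exceeded the baseline on each array and passed limma's test, RPS26 being the other.

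The stalk, which recruits the elongation factors, had all 4 genes detected, at distances of 4.11 (RPLP0), 5.38 (RPLP1), 4.68 (RPLP2) and 5.19 (RPL12, which forms its base). RPL5 and RPL11, which carry the small rRNA of the large subunit and bind MDM2 when free, had distances of 5.21 and 5.46. The 8 genes around the peptide exit tunnel were all detected, with a median of 5.11, among them RPL39, a short protein in the tunnel wall, at 4.92. Near the peptidyl transferase centre RPL3 stood at 5.53 and RPL10, among the last proteins to join the subunit, at 2.01.

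On the small subunit, the 3 genes at the messenger RNA entry (RPS2, RPS3 and RPS9) had a median distance of 5.40. The 3 of the decoding centre and head ranged from 3.23 for RPS23, which contacts the decoding site, to 5.42. At the messenger RNA exit and platform 6 of 6 matched genes were detected with a median of 5.01, but 5 passed limma's test because RPS26 did not. All 4 X-linked members (RPL10, RPL36A, RPL39 and RPS4X) were detected, with a median of 4.95. The 19 members known as genes of Diamond-Blackfan anaemia, a failure of red cell formation, were all detected with a median of 5.06, and 18 passed the test. The 32 matched members that are conserved in all domains of life were detected with a median of 5.12, and 42 of the other 44 with a median of 5.01. The role lists overlap.

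A tail of 8 members lay under 3.5 log2 units, while the other 68 lay between 3.5 and 6, a division made after the values had been seen. RPL32, a large subunit protein, was lowest. Its levels were 9.29, 9.13, 8.54 and 8.17 on replicates 1 to 4, below the baseline on every array, and its distance was −1.32 ± 0.99 (SD, n = 4). RPL34, also of the large subunit, had levels of 10.44, 9.99, 9.36 and 9.50 and a distance of −0.28 ± 1.01. It was above the baseline on replicates 1 and 2 and below it on replicates 3 and 4.

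RPS26, which lines the messenger RNA exit, had levels of 10.91, 10.36, 10.33 and 9.76 and a distance of 0.24 ± 0.91 (SD, n = 4). It exceeded the baseline on replicates 1 and 2, and limma's adjusted p was 0.499. RPL37 had levels of 11.73, 10.99, 11.82 and 10.70, a distance of 1.21 ± 0.78 and an adjusted p of 0.000744 by limma, with each array above the baseline. The remaining low members were above the baseline on every array, with the smallest distance at 1.11 for RPS29 on replicate 3. RPS29, a zinc-binding protein of the small subunit head, had 12.30, 12.25, 11.80 and 11.82. RPL10 had 11.85, 12.38, 12.24 and 11.98, and RPL28 had 12.51, 12.72, 12.87 and 12.30. RPS23 had 13.61, 13.50, 13.55 and 12.68, and its lowest value, on replicate 4, stood apart from the rest.

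Some of these low members differ from most others in where their probes lie by name. Each probe name ends in a number, apparently its position in the transcript, though no source used here states this. Of the 90 member targets, 6 had all their numbers above 900, and 4 of these belong to the tail: RPL32 (915 to 1427), RPL10 (1013 to 1975), RPL28 (3175 to 3926) and RPS23 (1889 to 3120). The others, RPL22 (919 to 1603) and RPL15 (957 to 1338), had distances of 4.17 and 5.18. The bound of 900 lies just under the lowest number of RPL32, and the share of all targets above it was not counted. Over all named genes, 39673 probes were numbered above 900, 16343 from 51 to 900 and 1359 up to 50. A link between these numbers and the tail was not tested. The rest of the tail did not share this, with RPS26 numbered 157 to 174 and RPL37 482 to 1419. For RPL34 the targets ran from 510 to 651 and from 38 to 736, and for RPS29 from 86 to 203 and from 232 to 609. Over all members, the 206 probes numbered 51 to 900 had a median level of 15.37, and 95.1% of them lay above the baseline. The 22 probes numbered above 900 had a median of 13.42 and the 42 numbered up to 50 one of 12.60, with 77.3% and 78.6% above the baseline. For all named genes the medians over the same ranges were 7.40 up to 50, 8.99 from 51 to 900, and 10.16 above 900. The highest range was thus the brightest over all genes but not in the members, a comparison of medians that was not tested. The member probes above 900 include all those of RPL32, RPL10, RPL28 and RPS23, which are in the tail for their low values. The lower median of that range in the members follows in part from this overlap.

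**Figure D2:**
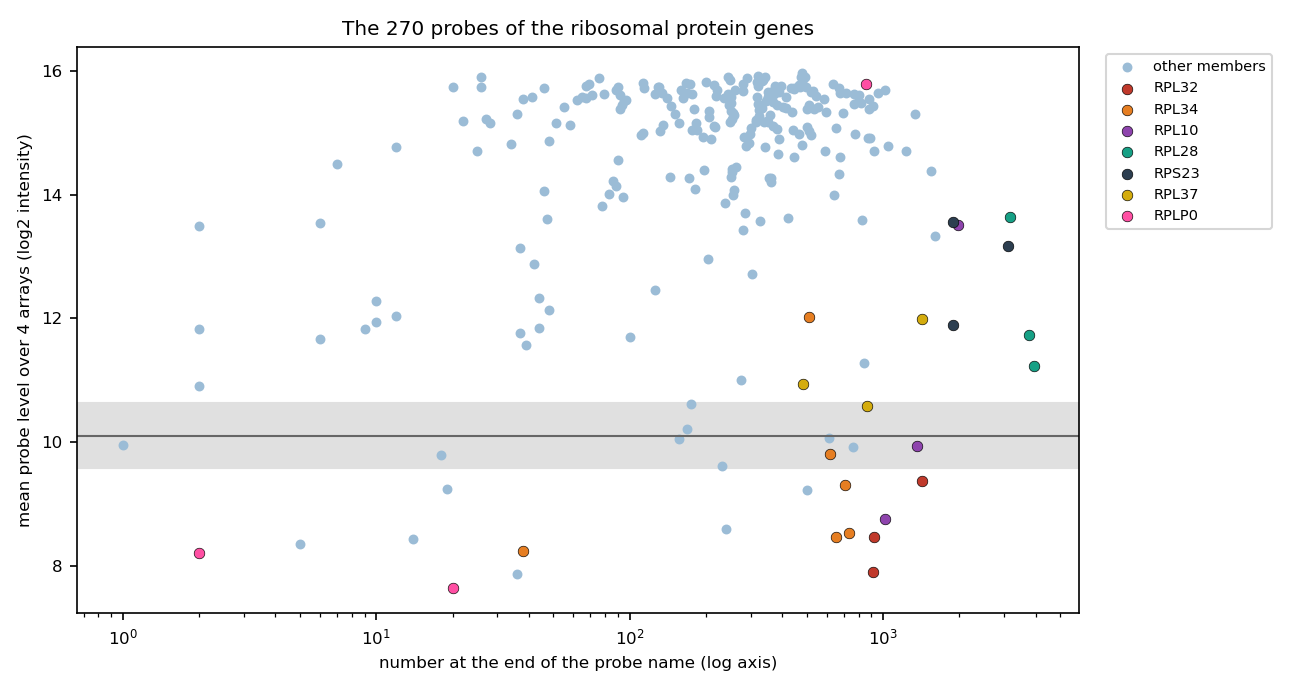
Mean level over the 4 arrays (log2 intensity) of each of the 270 member probes against the number at the end of its name (log axis), with 7 members coloured; the grey line and band are the mean ± SD of the baseline. Probes of RPL32, RPL10, RPL28 and RPS23 lie at the right, below most others, and the RPLP0 probes numbered 2 and 20 lie far under the one numbered 859.

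Probes of a member could disagree widely. The largest gap was in RPLP0, the scaffold of the stalk. Its probe number 859 read 15.93, 15.98, 15.75 and 15.50 on replicates 1 to 4. Its probe number 2 read 7.75, 8.54, 7.36 and 9.19, and its probe number 20 read between 6.82 and 8.42, all below the baseline. With the median probe in place of the mean of the linear values, RPLP0 fell to a distance of −1.50. In RPS19, the gene most often mutated in Diamond-Blackfan anaemia, the probes numbered 9, 240 and 499 had mean levels of 11.83, 8.59 and 15.40. The same order of disagreement appeared in RPL10, where probe 1975 averaged 13.51 and probe 1013 averaged 8.75.

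The members' probes were in the median closer to each other than those of all targets. The median range among the 3 probes of a target was 0.79 log2 units for the members and 1.48 for all targets, and 49 of 90 member targets had a range under 1, against 33.4% of all. Ranges over 3 were found in 18 of 90 member targets and in 16.8% of all targets. Of the 32 member targets with probes on both sides of number 50, the lowest probe had a number of 50 or lower in 22 (68.8%), against 652 of 1099 (59.3%) for all targets.

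Members with 2 targets gave a further check. There were 14 of them, and 8 differed by less than 1 log2 unit, down to 0.07 for RPLP1. RPS29 differed most, by 4.59. One of its targets, with probes numbered 86 to 203, read 14.64, 14.83, 13.68 and 14.21, and the other, with probes numbered 232 to 609, read 9.95, 9.68, 9.92 and 9.43. The low value of RPS29 is the average of a target at a distance of 4.23 and one at −0.36. RPS15A differed by 3.45 between its targets, RPL36 by 2.17 and RPL6 by 2.00. In RPL34 the targets stood at distances of −1.28 and 0.72, at the low end of the members' range.

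The members were crowded at the top of the scale. Of their 270 probes 112 (41.5%) exceeded 15 on all 4 arrays, as did 993 (1.38%) of all probes. Members supply 0.375% of all probes and 11.3% of those at the top. Whether the scanner was saturated there was not examined, as raw intensities were not analysed here.

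The median SD of a level over the 4 arrays was 0.23 log2 units for the members and 0.42 for all genes. Among genes with a mean level of 14 or more it was 0.21 for 65 members and 0.23 for 1307 other genes. An SD under 0.2 was found in 29 members, among them RPL24 with 0.067 and RPL26 with 0.069. RPS27A, which is made fused to ubiquitin, varied most with an SD of 0.75, and 12 members exceeded 0.4. Distances had a larger median SD, 0.70 in the members and 0.63 in all genes, because the baseline itself moved from 9.47 on replicate 1 to 10.69 on replicate 3.

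Replicate 3 was the low array for most members. It held the lowest of the 4 levels for 46 of 76 members (60.5%), and replicate 4 did so for 26. The highest level was on replicate 2 for 42 members and on replicate 1 for 29. Among the 1307 other genes with a mean level of 14 or more, replicate 3 was lowest for 548 (41.9%), and among the 65 members at that level for 43 (66.2%). The eIF3 genes showed it in 9 of 13 and the genes of elongation and related factors in 4 of 8. The biogenesis genes showed it in 14 of 25 and the mitochondrial ribosomal protein genes in 36 of 77. The deposited values share 1 distribution within replicates 1 and 2 and another within replicates 3 and 4, and the part of this in the pattern was not tested. After quantile normalization over all 4 arrays, replicate 3 was still the lowest for 44 members, and the members' medians were 15.18, 15.22, 14.97 and 15.15. The highest level then lay on replicates 1 to 4 for 21, 35, 8 and 12 members, so replicates 1 and 2 held it less often than before.

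Single probes of members departed further. A spread above 5 log2 units between arrays was found in 5 member probes (1.85%) and in 299 of all probes (0.415%), although the median spread was 0.64 in the members and 1.30 overall. In RPL27A, probe 274 read 15.55, 6.21, 15.23 and 7.02 on replicates 1 to 4. In RPS28, probe 100 read 6.98, 15.82, 8.02 and 15.98. In RPL31, probe 255 read 8.97 on replicate 1 and 15.62 to 15.73 on the rest. The others were RPL14 probe 762, low on replicate 2 at 5.72, and RPS23 probe 1889, low on replicate 4 at 6.65. The probes of RPL27A and RPS28 both split replicates 1 and 3 from replicates 2 and 4, with opposite sign, while in each of the others a single array was low. Left out, these and all such probes changed no detection call of a member.

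**Figure D3:**
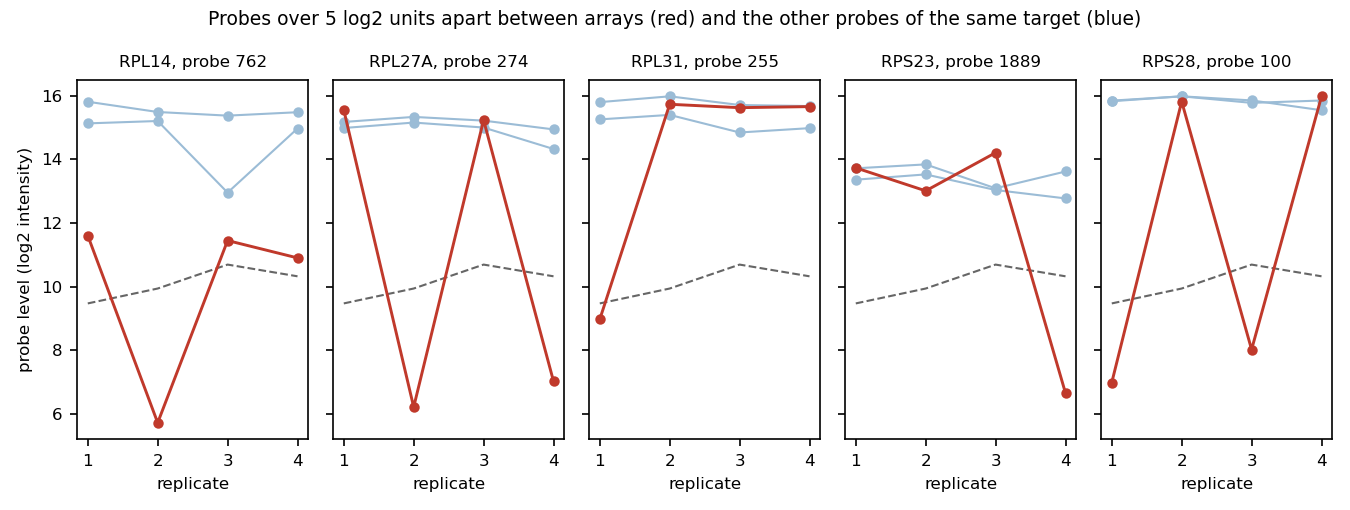
Levels (log2 intensity) of the 5 member probes whose 4 arrays spread over more than 5 log2 units (red) and of the other probes of the same targets (blue), by replicate; the dashed line is the baseline of each array. In the red probes the arrays fall into a high and a low set, and which arrays are low differs between probes.

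Paralogues of the members were read as a contrast, since they encode relatives of the same proteins from other genes. Of 8 listed, 7 were matched and 4 were detected. RPL3L, the form of striated muscle, had a distance of −2.25, RPL10L, the form of the testis, −3.40, and RPS27L −2.18, and none of these was above the baseline on any array. RPL7L1 (4.09), RPL36AL (3.72), RPL26L1 (2.77) and RPL39L (2.18) exceeded it on every array. The members of the 7 pairs had distances of 5.53 (RPL3), 4.81 (RPL7), 2.01 (RPL10), 5.40 (RPL26), 5.25 (RPL36A), 4.92 (RPL39) and 4.98 (RPS27). A member and its paralogue are read by different probes, so no difference between them is given. Signal from near-identical copies or pseudogenes can mix in a probe, and the probe sequences were not used here, so this was not tested.

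**Figure D4:**
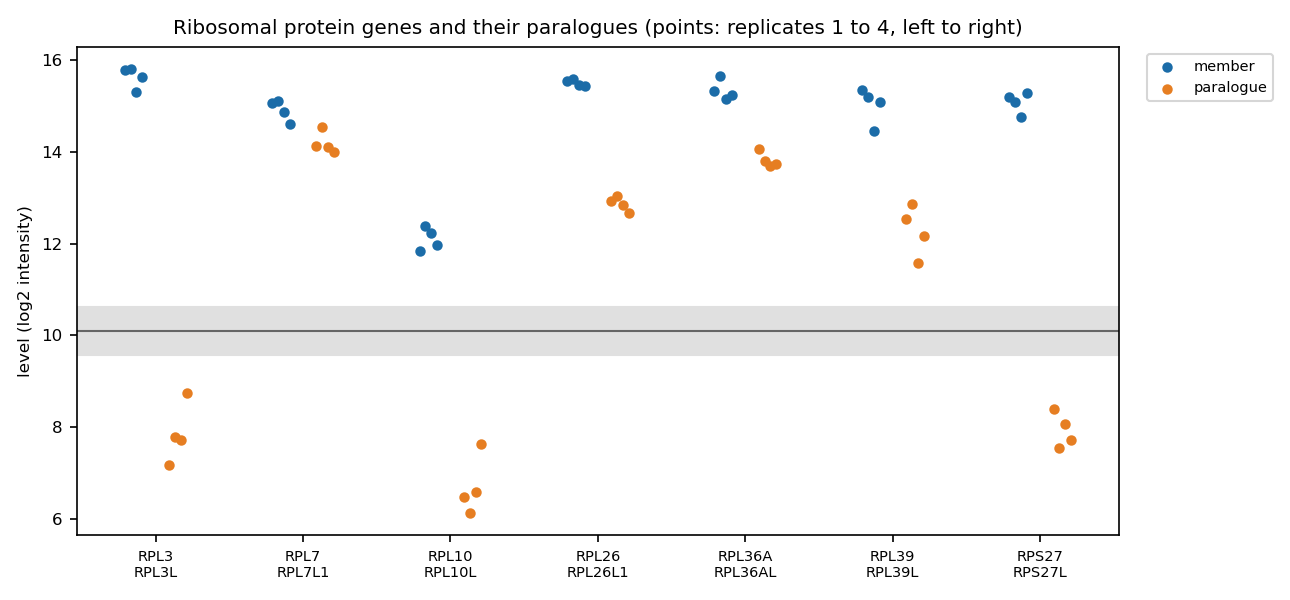
Level (log2 intensity) of 7 members (blue) and their paralogues (orange), with 1 point per array in the order of replicates 1 to 4; the grey line and band are the mean ± SD of the baseline. RPL3L, RPL10L and RPS27L lie below the band on every array and the other paralogues lie above it.

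Ribosomal proteins with other names lay above the baseline as well. RACK1, a scaffold on the small subunit, had a distance of 5.68, and FAU, a fusion of a ubiquitin-like and a small subunit protein, 1.54. Of 77 mitochondrial ribosomal protein genes 76 were detected, with a median distance of 2.90, against 5.05 for the cytosolic set, and 74 passed limma's test. The exception was MRPL17 at −0.82 ± 0.70 (SD, n = 4). All 8 genes of elongation and related factors were detected, with a median of 4.72, EEF2 at 5.72 and EEF1A1, which brings aminoacyl-tRNA to the ribosome, at 3.10. All 13 subunits of eIF3, the factor that readies the small subunit for initiation, were detected with a median of 4.84, EIF3J being lowest at 0.83 ± 0.86. The 25 ribosome biogenesis genes, which make and process rRNA, were all detected with a median of 4.22, and 24 passed the test. These lists are described by their counts and medians alone, and no test compared them with the members.

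**Figure D5:**
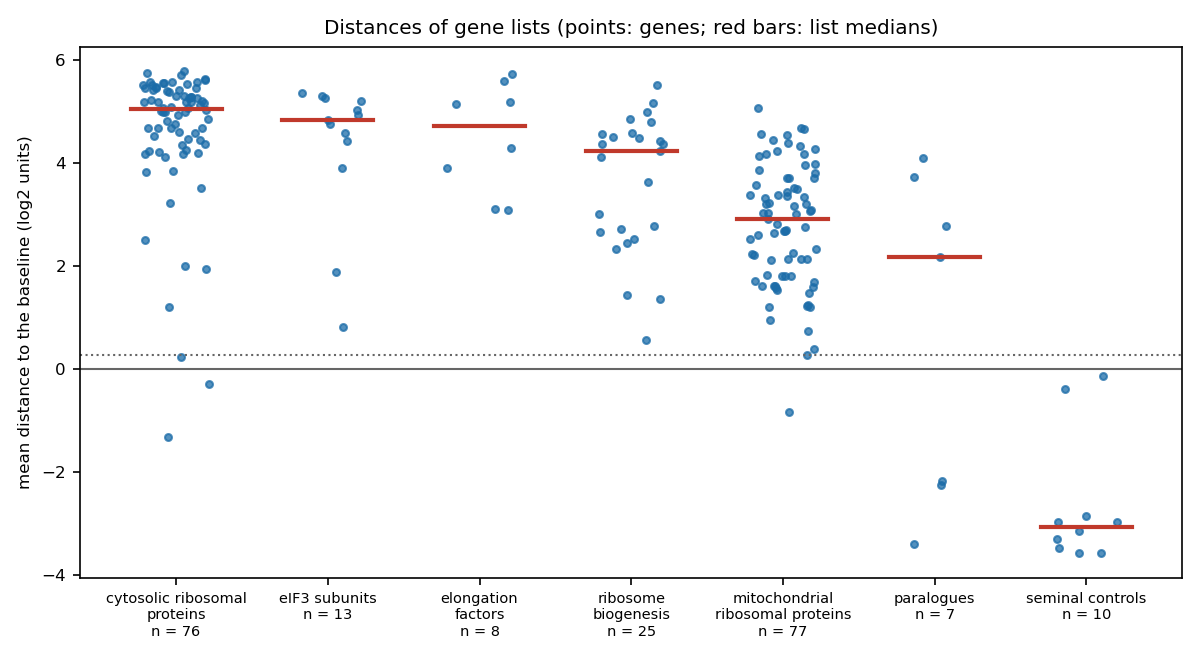
Mean distance to the baseline (log2 units) of each gene, with 1 point per gene and a red bar at each list's median. The lists are cytosolic ribosomal proteins, mitochondrial ribosomal proteins, elongation and related factors, eIF3, biogenesis, paralogues and controls. The solid line at 0 is the baseline and the dotted line the median of all genes (0.26). The cytosolic members gather near 5 with a short tail, the mitochondrial set is centred near 2.90, and all 10 controls lie below 0.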

How the data were processed

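The authors deposited log2 intensities for 71998 probes on 4 arrays. Images were scanned with GenePix, intensities were extracted with NimbleScan, and the submitters' processing notes name RMA without its role. Sorted values of replicates 1 and 2, and of replicates 3 and 4, coincide, the form of quantile normalization in 2 pairs. Probes were assigned by the RefSeq accession in their names to a RefSeq gene table (GRCh38.p14). Probes were averaged on the linear scale into targets and returned to log2, and targets were averaged on the log2 scale into genes. The baseline on each array was the mean plus 2 SD of 10 matched control genes of the 11 listed in the study's methods. Distances were tested against 0 with limma 3.58 in R 4.3, one-sided, with Benjamini-Hochberg adjustment over 17217 genes. The fit gave every gene the same standard error of 0.351, pooled over genes, so a gene's p-value does not use its own SD. NEFM, for example, had a distance SD of 3.08 and was tested with that same standard error. Genes share each array's baseline, so their tests were not independent. The p-values rest on the pooled spread between these arrays. The number of arrays limits the precision. Tables were made with Python 3.11 and pandas 2.3, and the limma step was tested on simulated data.

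The members and the lists were chosen with earlier results of these data known. Members were described in full where they were the 5 highest or 5 lowest, fell below the baseline on an array, had disagreeing probes or targets, or belonged to a paralogue pair or role list. Alternatives changed the baseline, the probe summary, the target rule, the normalization, the filter, the limma prior and the arrays used. Protein sequences were not analysed here, and some single genes are not reported here, though counts and medians include them. The plot of members by array leaves them out.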

Additional observations from a re-analysis of the deposited data

Results flagged for a closer look

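Among 98 genes tested for 1 array standing apart from the other 3, 5 were picked out by Dixon's ratio of the gap to the whole range. Of the 98 genes tested, 76 were members, and all 5 are among these. Chance gives about 1 in 20 for independent values, and the count of 5 among 98 is near that share. Genes share each array, and replicate 3 held the lowest level for 46 of the 76 members. That rate is therefore only a rough guide. The share over all named genes is not given here, and the values below are description alone. RPS18 had a ratio of 0.940, with 15.03 on replicate 3 and 15.67 to 15.71 on the rest. RPL22 had 0.923, with 13.47 on replicate 3 against 14.50 to 14.59. RPS27A had 0.843, with 13.47 on replicate 3 against 14.80 to 15.05, and RPL30 had 0.840, with 15.04 on replicate 3 against 15.33 to 15.39. RPS23 had 0.877, with 12.68 on replicate 4 against 13.50 to 13.61.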

How the results depend on the processing

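The alternatives left 71 to 76 members detected, and 67 to 76 passed limma's test. Over all genes the number detected moved as well, from 6731 to 12747. With 3 SD in the baseline, 72 members and 6731 of all 17217 genes were detected. Without the controls SPATA5 and SPATA13, 76 members and 12747 of all genes were. The calls that changed were those of the low tail and of members whose probes or targets disagree. With 1 SD in the baseline, the baseline was 8.79 and the members' median distance 6.36, RPL34 came to 1.04 and MRPL17 to 0.49. With 3 SD the baseline was 11.42 and the median 3.73, RPL37 came to −0.11, RPS26 to −1.08 and GFAP to −1.16. With olfactory receptor genes as controls the baseline was 8.02 and the median 7.13, with RPL32 at 0.76, RPL34 at 1.80 and MRPL17 at 1.26. Without the controls SPATA5 and SPATA13 the baseline was 7.78 and the median 7.37, with RPL32 at 1.00, RPL34 at 2.04, RPL3L at 0.074, RPS27L at 0.15 and MRPL17 at 1.50. With the mean of log2 probe values the members' median exceeded that of all genes by 5.02, and GFAP was −0.45. With the median probe that difference was 5.16, RPL10 was −0.037 and RPLP0 −1.50. With the lowest probe the difference was 5.83, the baseline 8.82 and the members' median SD of the level 0.46, with RPL10 at −0.067, RPLP0 at −1.44, RPS19 at −0.22 and GFAP at −2.23. Among genes above the median level the difference was 2.62. The highest target put RPL34 at 0.68 and the lowest put RPS29 at −0.36. Leaving out 1 array at a time, RPL34 ranged from −0.70 to 0.068 (above 0 without replicate 3), RPS26 from −0.17 (without replicate 1) to 0.50, and GFAP from −0.18 (without replicate 2) to 0.44. In alternatives added after the data had been examined, replicates 1 and 2 alone gave RPL34 0.51 and a median SD of 0.077, and replicates 3 and 4 alone gave RPS26 −0.46 and GFAP −0.21. The cause was not tested, beyond what each setting changes by construction. For members, 1565 of the gene values under alternatives kept both direction and side of the threshold. Direction reversed in 18 values, from 8 members. With direction kept, 6 values from 6 members lost limma's call and 4 values from 1 member gained it. Some settings, such as shifting the arrays to the same median, leave the distances unchanged by construction, so the first count overstates stability. Values near the top of the scale limit what a high level can show, as does background near the baseline.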
